A study of Schmidtea mediterranea with 64 samples.

Results

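The 52 transcripts described here were lowered in planarian X1 cells after 2 different knockdowns. They were chosen from *Schmidtea mediterranea* RNA-seq as the transcript IDs whose mean on the log2(RPKM + 0.5) scale was at least 1 lower at day 9 in both *set1*(RNAi) and *mll1/2*(RNAi) X1 cells than in *unc22*(RNAi) X1 cells of the same experiment and day. RPKM scales reads to transcript length and to library size, so levels are per length. Of 28173 IDs listed in any of the 4 deposited tables, 18287 were listed in both X1 tables, 12231 of these had a mean of 1 RPKM or more over the 16 libraries of each, and 52 of the 12231 met both limits. A further 571 IDs met only the *set1* limit and 231 only the *mll1/2* limit.

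Set1 and MLL1/2 belong to the enzymes that methylate histone H3 at lysine 4 near the start of genes, a mark found at actively transcribed promoters. In yeast and animals Set1 proteins work in COMPASS complexes and place much of the trimethyl mark, and in mammals MLL1 and MLL2 act at a more limited group of genes, developmental regulators among them. Planarian X1 cells are the dividing stem cells (neoblasts), sorted by their Hoechst-stained DNA content, and neoblasts are the source of all new tissue in regeneration and turnover.

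Adult worms, in every group, ate bacteria producing double-stranded RNA mixed into liver paste. The groups used were *set1*(RNAi) sampled after 6 and 9 days, *mll1/2*(RNAi) sampled after 9 and 12 days, and for each knockdown its own *unc22*(RNAi) controls at the same days, where *unc22* matches no gene of the animal. PolyA RNA was taken from X1 cells or from whole worms, with 4 libraries in each of the 16 groups. The labels give no strain, clone or pooling of animals, and nothing says that the libraries of a group came from separate animals or sorts, so the p-values measure the spread between these libraries, which may be technical.

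Recovered read totals ran from 9.5 to 22.51 M per library over the 64 libraries. The files do not pair IDs with gene names, so the roles of the 52 transcripts, the levels of *set1* and *mll1/2* themselves and the stem cell markers of the sorted cells were not checked, and 4 transcripts are shown by ID as examples. Reads shared between near-identical transcripts are uncertain because the way they were counted is not given in the sources used here. In the *mll1/2* X1 table, *unc22*(RNAi) day 12 replicates 2, 3 and 4 stood apart from the other libraries: they scored 49.5, 74.9 and 52.6 on the first principal component, which held 37.1% of the variance, and the other 13 libraries lay between -26 and 12.9. Library size implied by their RPKM scale was 0.763, 0.704 and 0.76 times the reads listed, the lowest of the 64 libraries. The counts and medians of members at day 12 in X1 cells are given with and without them, and whether the scaling had a part in how they differed was not tested.

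The 52 transcripts were short and of low to moderate abundance. Their lengths, solved from the steps in the RPKM values, ran from 287 to 2817 bases with a median of 790, and 40 of the 52 were shorter than the median of 1207 bases over the 12231 IDs that could have been chosen. Mean level over the 16 libraries had a median of 5.38 RPKM in the *set1* X1 table and 3.47 RPKM in the *mll1/2* X1 table, against 10.7 and 9.34 RPKM over the 12231 IDs. That mean includes the knockdown libraries, so part of the gap follows from how the members were chosen. In *unc22*(RNAi) X1 cells the members ranged from 1.44 to 267 RPKM in the *set1* experiment, with a median of 7.26 RPKM. In the *mll1/2* experiment they ranged from 1.6 to 122 RPKM, with a median of 5.17 RPKM. Medians over the 12231 IDs in *unc22*(RNAi) alone were not computed. In these bulk libraries fewer cells of a type and less RNA per cell cannot be told apart.

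At day 9 in X1 cells, the values that chose the members, the median change was -1.36 after *set1*(RNAi) and -1.32 after *mll1/2*(RNAi), with lowest values of -2.60 and -3.47. All 4 knockdown libraries were below all 4 controls in 48 and 47 of the 52, beside 19.0% and 6.08% of all tested IDs. Over the 12231 IDs, 5.09% reached -1 after *set1*(RNAi) and 2.31% after *mll1/2*(RNAi). Just inside the limits were members with changes after *set1*(RNAi) and *mll1/2*(RNAi) of -1.003 and -1.20, of -1.01 and -1.81, and of -1.40 and -1.002. Just outside were IDs at -1.24 and -0.99, at -1.03 and -0.99, and at -0.98 and -1.53. The membership depended on single libraries: leaving out each of the 16 day 9 libraries in turn gave 46 to 60 members, and 30 of the 52 were kept throughout. With a pseudocount of 0.1 the same rule found 85 members, 51 of the 52 among them, and with a pseudocount of 1 it found 31.

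After 6 days of *set1*(RNAi), an earlier day that took no part in the choice except through the minimum level, most members were already lower in X1 cells. By limma on log2(RPKM + 0.5), with Benjamini-Hochberg adjustment across 13503 IDs and a call below an adjusted p of 0.05, 44 of 52 members fell and 0 rose, beside 13.2% of all tested IDs that fell and 6.64% that rose. The median change of the members was -0.89, or 1.85-fold lower, and that of all tested IDs was -0.01. In 39 of the 52 members, all 4 *set1*(RNAi) libraries lay below all 4 *unc22*(RNAi) libraries, which held for 14.7% of all tested IDs. For the 0 members called higher, limma found 0 higher at an unadjusted p below 0.05, and limma-voom on recovered reads also called 0 higher.

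The 8 members not called at day 6 had changes from -0.74 to 1.10, and 6 of the 8 were below 0. Their median standard error was 0.26 against 0.18 for the 44 called, and their median level in *unc22*(RNAi) X1 cells was 5.04 RPKM against 10.4 RPKM. A change of -1 or less was reached by 20 of the 52 members at day 6. At this day 1.95% of all tested IDs reached it.

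After 12 days of *mll1/2*(RNAi) the members were again lower in X1 cells. The minimum level took part in the choice here too, so a member that passed it only through its control libraries had to be lower. The member with the fewest reads had 0 over the 4 *mll1/2*(RNAi) libraries, at day 12 and at day 9. By the same limma test over 12525 IDs, 46 of 52 members fell and 0 rose, beside 15.1% of all tested IDs that fell and 13.2% that rose. The median change was -1.76, or 3.39-fold lower, while the median of all tested IDs was -0.13. The groups did not overlap in 45 of the 52 members, with all 4 *mll1/2*(RNAi) libraries below all 4 *unc22*(RNAi) libraries, against 13.6% of all tested IDs. All 52 fitted changes were below 0, and so were 61.8% of all tested IDs. For the 0 called higher, limma gave 0 at an unadjusted p below 0.05 and limma-voom called 0. Without the 3 *unc22*(RNAi) libraries that stood apart, 40 members were called lower, each of them among the 46, beside 3.94% of all tested IDs, and 6.4% of all tested IDs were called higher. The median was then -1.69, with 0.04 over all tested IDs, and 51 of the 52 changes were below 0. In 49 members all 4 *mll1/2*(RNAi) libraries were below the remaining control. That is easier to meet than 4 libraries below 4 controls, and its share over all tested IDs was not counted. In that fit the single remaining control was assumed to vary like the other groups.

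**Figure D1:**
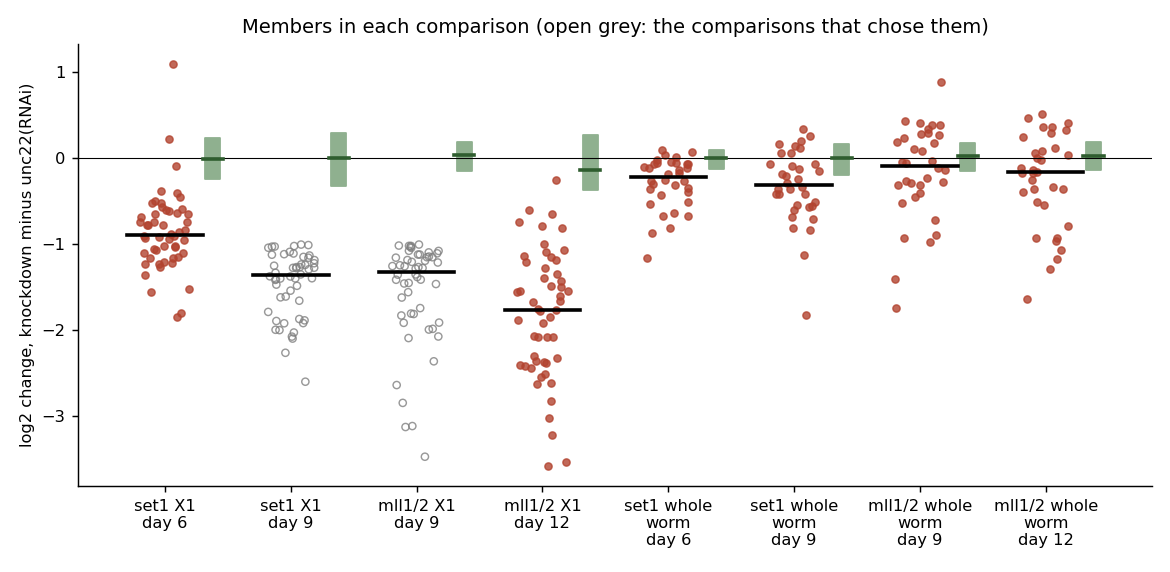
Log2 change (knockdown minus *unc22*(RNAi), log2(RPKM + 0.5) scale) of each member with a mean of 1 RPKM or more, in the 8 comparisons. Black lines are medians of the members, and green bars are the middle 50% of all tested IDs with their median. Filled points are comparisons the rule did not use: the medians lie at -0.89 for *set1* X1 day 6 and -1.76 for *mll1/2* X1 day 12, and between -0.31 and -0.08 in whole worms.

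Counted over both X1 comparisons that the rule did not use, 41 of the 52 members were called lower in *set1*(RNAi) at day 6 and in *mll1/2*(RNAi) at day 12. Of the 12231 IDs tested in both tables, 3.95% were called lower in both. A further 5 members were called lower only after *mll1/2*(RNAi), 3 only after *set1*(RNAi), and 3 in neither. The change was more negative after *mll1/2*(RNAi) at day 12 than after *set1*(RNAi) at day 6 in 46 of the 52, by more than 1 on the log2 scale in 24. Those values come from different days and from tables that were normalised apart, so the difference was not tested. Without the 3 control libraries that stood apart, the change was more negative after *mll1/2*(RNAi) in 47 members, by more than 1 in 18. That fit leaves a single control at day 12, so calls over both comparisons are not given for it.

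The order of the members differed between *set1*(RNAi) at day 6 and *mll1/2*(RNAi) at day 12, which differ in both knockdown and day. Between the days of 1 knockdown, with day 9 having chosen the members, the Spearman correlation was 0.43 for *set1* and 0.65 for *mll1/2*. Over the 52 members, the change in *set1*(RNAi) at day 6 and in *mll1/2*(RNAi) at day 12 had a Spearman correlation of 0.14 and a Pearson correlation of 0.34, given as a description over transcripts measured in the same libraries. A change of -1 or less was reached by 45 members at *mll1/2*(RNAi) day 12, beside 4.17% of all tested IDs, and by 19 members in both comparisons. A change of -2 or less was reached by 21 members after *mll1/2*(RNAi), and the lowest values were -3.58 after *mll1/2*(RNAi) and -1.85 after *set1*(RNAi). Shares of all tested IDs at -2 or less, and at -1 or less in both comparisons, were not counted, with or without the 3 control libraries that stood apart. Without the 3 control libraries the Spearman correlation was 0.21 and the Pearson correlation 0.54, a change of -1 or less was reached by 45 members after *mll1/2*(RNAi) and by 18 in both comparisons, and -2 or less by 14 after *mll1/2*(RNAi).

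**Figure D2:**
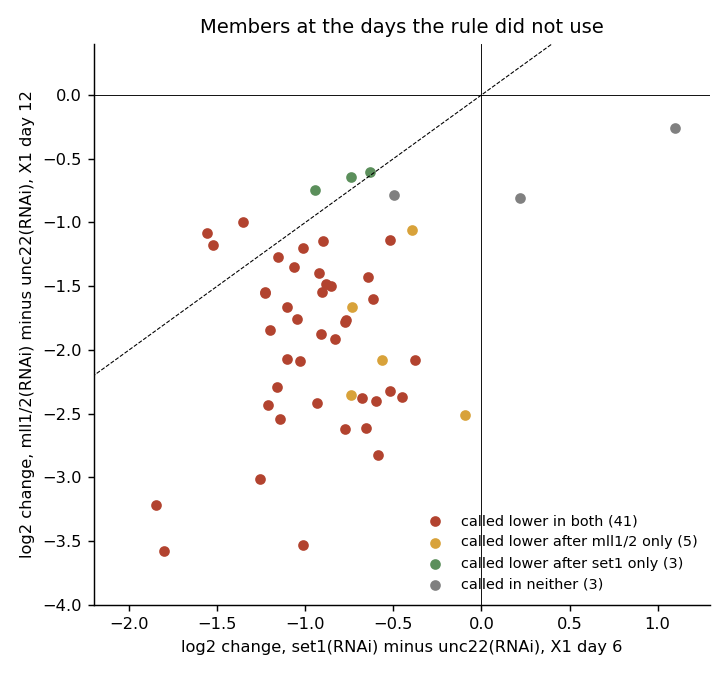
Each point is 1 of the 52 members. The x axis is its log2 change in *set1*(RNAi) X1 cells at day 6, the y axis that in *mll1/2*(RNAi) X1 cells at day 12, and the dashed line marks equal change. Colours give the calls: 41 members were lower in both, and 46 of the 52 lie below the dashed line.

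As shares, 84.6% of the 52 members were called lower in *set1*(RNAi) X1 cells at day 6 and 88.5% in *mll1/2*(RNAi) X1 cells at day 12. For the 571 IDs that met only the *set1* limit the shares were 81.1% and 29.8%, and for the 231 IDs that met only the *mll1/2* limit they were 21.6% and 82.3%. Without the 3 control libraries the day 12 shares were 76.9% of the members, 9.63% of the 571 and 62.3% of the 231. The shares follow in part from how the 3 lists were chosen, and the difference between lists was not tested.

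The members were also compared library by library. The median of the 52 on the log2(RPKM + 0.5) scale was 1.95 to 2.32 in the *set1*(RNAi) day 6 X1 libraries, against 2.77 to 2.99 in *unc22*(RNAi). At day 12 it was 0.57 to 0.82 in the *mll1/2*(RNAi) X1 libraries, against 2.37 to 2.68 in *unc22*(RNAi). The groups did not overlap at either day, and the 3 control libraries that stood apart at day 12 had medians of 2.37, 2.68 and 2.50, beside 2.52 for replicate 1. Over the same 64 libraries the median of all tested IDs stayed between 3.05 and 3.34.

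**Figure D3:**
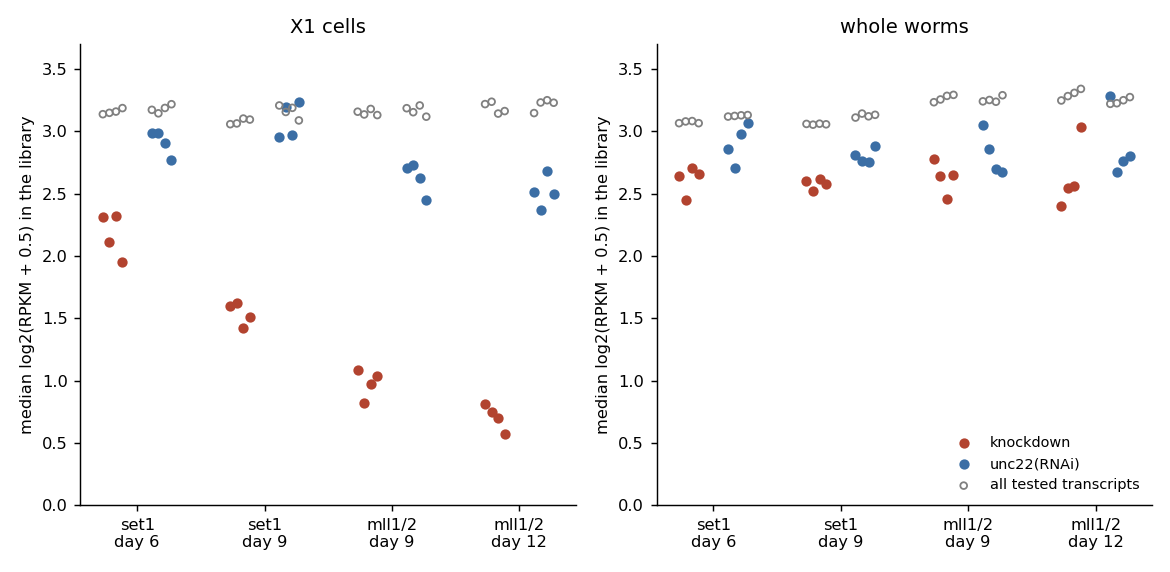
Median log2(RPKM + 0.5) of the members in each library, for X1 cells (52 members) and whole worms (34 tested members in each table), with knockdown libraries left of *unc22*(RNAi) libraries and open circles for the median of all tested IDs. In X1 cells every knockdown library lies below its controls, where day 9 values chose the members. In whole worms the groups overlap at both days of the *mll1/2* experiment.

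SMED30025108, 617 bases long, had the most negative mean of the 2 changes that chose the members. At *set1*(RNAi) day 6 it had 5.42, 4.84, 4.48 and 2.52 RPKM in X1 cells, against 18.3, 20.6, 17.8 and 10.4 RPKM in *unc22*(RNAi). The highest *set1*(RNAi) library was below the lowest control, with a change of -1.85 ± 0.25 (SE, limma adjusted p = 7.91e-05). At *mll1/2*(RNAi) day 12 it had 0.763, 0, 0.135 and 0 RPKM, against 12.5, 3.96, 3.37 and 6.16 RPKM in *unc22*(RNAi).

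These *mll1/2*(RNAi) values of SMED30025108 rest on 5, 0, 1 and 0 reads, against 89, 26, 21 and 38 reads in the controls. The fitted change was -3.22 ± 0.34 (SE, limma adjusted p = 4.9e-06), which is limited by the pseudocount. The change became -4.28 against the single control left without the 3 libraries that stood apart. At day 9, which chose it, SMED30025108 averaged 3.26 ± 0.98 RPKM in *set1*(RNAi) and 12.2 ± 2.3 RPKM in *unc22*(RNAi) X1 cells, and 0.319 ± 0.13 RPKM in *mll1/2*(RNAi) and 8.63 ± 1.7 RPKM in *unc22*(RNAi) X1 cells (SD, n = 4 each). In whole worms it was at most 1.16 RPKM in any library and was not tested.

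SMED30001888 was the most abundant of the other members in *unc22*(RNAi) X1 cells, at a mean of 172 RPKM, and the one whose libraries differed most from each other among the 4 examples. At *set1*(RNAi) day 6 it had 29.0, 42.1, 162 and 199 RPKM in X1 cells, against 31.4, 52.9, 765 and 16.5 RPKM in *unc22*(RNAi). The groups overlapped throughout, and the change of 0.22 ± 1.08 (SE) was not called (limma adjusted p = 0.905). Its sign turned to -0.45 when *unc22*(RNAi) library d was left out.

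At *mll1/2*(RNAi) day 12 SMED30001888 had 33.7, 72.7, 26.3 and 26.4 RPKM in X1 cells, against 59.2, 35.5, 38.4 and 201 RPKM in *unc22*(RNAi), and the change of -0.81 ± 0.48 (SE) was not called (limma adjusted p = 0.227). Without the 3 control libraries that stood apart it was -0.70, against the single control left. At day 9, which chose it, the *set1* table gave 56.9, 24.2, 18.7 and 138 RPKM in *set1*(RNAi) and 803, 70.4, 346 and 47.9 RPKM in *unc22*(RNAi). The highest *set1*(RNAi) library there exceeded 2 of the 4 controls. In whole worms its libraries ranged from 1.5 to 7.73 RPKM in *set1*(RNAi) and from 1.65 to 122 RPKM in *unc22*(RNAi), and none of the 4 whole-worm changes was called. At day 9 its 4 *set1*(RNAi) whole-worm libraries were all below the 4 controls, with a change of -1.82 ± 0.90 (SE, limma adjusted p = 0.116).

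The members differed in where they were found in control animals. Setting *unc22*(RNAi) X1 cells beside *unc22*(RNAi) whole worms, 33 of the 50 members listed in both *set1* tables and 29 of the 47 listed in both *mll1/2* tables had the higher RPKM in X1 cells. The ratio of X1 to whole-worm level ran from 0.0298 to 45.1 in the *set1* experiment with a median of 2.91, and the median over all eligible IDs was 1.22. In the *mll1/2* experiment it ran from 0.0124 to 29.2, with a median of 2.01 against 1.11. The tables were normalised apart, so these ratios set levels side by side and were not tested.

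In whole worms 34 of the 52 members reached a mean of 1 RPKM in each whole-worm table, 33 of them in both. A further 16 were listed below that level for *set1* whole worms and 13 for *mll1/2* whole worms. A member that passed only through its control libraries had to be lower, so the whole-worm counts are read beside those of all tested IDs.

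In whole worms the members changed less than in X1 cells, and not all in one direction. After *set1*(RNAi), 11 of 34 fell and 0 rose at day 6, beside 10.6% of all tested IDs that fell and 5.91% that rose, with a median change of -0.21. At day 9, 17 of 34 fell and 3 rose, beside 22.9% and 19.2%, with a median of -0.31. The medians of all tested IDs were 0.00 and 0.01. For the 0 members that rose at day 6, limma gave 0 higher at an unadjusted p below 0.05 and limma-voom called 0. On at least 1 of the 2 days 20 members fell, beside 24.1% of all tested IDs, and 8 fell on both, beside 9.4%. All 4 *set1*(RNAi) libraries were below all 4 controls in 12 members at day 6 and in 15 at day 9, beside 12.2% and 20.3% of all tested IDs.

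After *mll1/2*(RNAi), 8 of 34 members fell and 1 rose in whole worms at day 9, beside 5.06% of all tested IDs that fell and 4.01% that rose. At day 12, 10 of 34 fell and 0 rose, beside 3.35% and 2.57%. The median changes were -0.08 and -0.16, with 0.03 over all tested IDs on each day. For the 0 that rose at day 12, limma gave 4 higher at an unadjusted p below 0.05 and limma-voom called 1. Over all alternatives the count called higher ran from 0 to 7 at day 9 and from 0 to 8 at day 12. The highest counts came with limma array weights, for which shares of all tested IDs were not counted. With the replicate number as a block 10 fell and 3 rose at day 12. Correlations of same-numbered libraries did not show pairing there, though replicate 1 was the highest and replicate 4 the lowest of each group on the first principal component. The 8 that fell at day 9 also fell at day 12. On both days 1.8% of all tested IDs fell, and on at least 1 day 6.61%. All 4 *mll1/2*(RNAi) libraries were below all 4 controls in 8 members at day 9 and in 11 at day 12, beside 7.69% and 6.93% of all tested IDs. Without a filter on low values, 13 of 47 listed members were called lower at day 9 and 17 at day 12, beside 3.79% and 2.27% of all listed IDs.

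Of the 33 members tested in both whole-worm tables, 13 were called lower in 0 of the 4 whole-worm comparisons, 8 in 1, 5 in 2, 4 in 3 and 3 in 4. Over all IDs tested in both tables the shares were 69.4%, 18.0%, 11.3%, 0.977% and 0.301%. At day 9, the day both experiments share, 6 members fell after both knockdowns, beside 1.53% of those IDs. The 3 members called lower in all 4 were also called lower in both X1 comparisons. Their changes ran from -0.65 to -1.14 in *set1*(RNAi) X1 cells at day 6 and from -1.43 to -2.62 in *mll1/2*(RNAi) X1 cells at day 12. In whole worms they ran from -0.30 to -0.81 and -0.42 to -0.57 after 6 and 9 days of *set1*(RNAi), and from -0.45 to -0.98 and -0.51 to -1.29 after 9 and 12 days of *mll1/2*(RNAi).

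**Figure D4:**
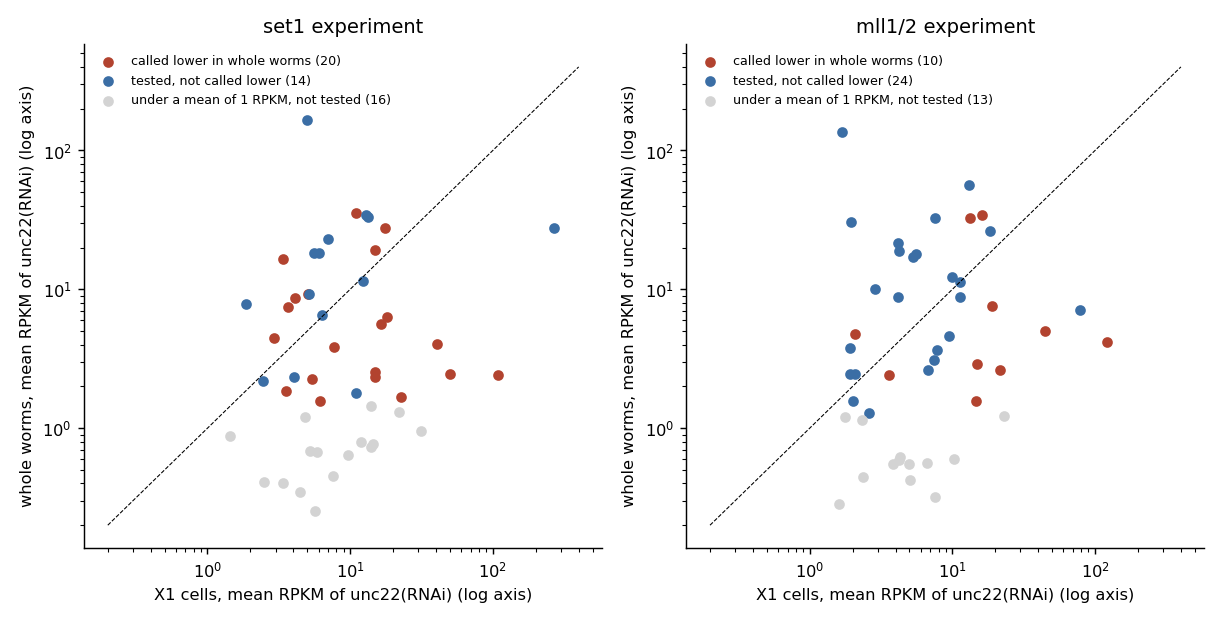
Mean RPKM of each member in *unc22*(RNAi) X1 cells (x axis, log) and *unc22*(RNAi) whole worms (y axis, log), for the *set1* experiment (50 members listed in both tables) and the *mll1/2* experiment (47). The dashed line marks equal RPKM in tables normalised apart. Red points fell in whole worms on at least 1 day (20 in the *set1* experiment, 10 in the *mll1/2* experiment), blue points were tested and did not, and grey points were under a mean of 1 RPKM.

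The members were set apart by those control levels, by limits chosen after the values were seen and therefore not tested. In 16 of the 47 members listed in both whole-worm tables, the *unc22*(RNAi) X1 level was at least 4 times the whole-worm level in both experiments. Of these 16, 14 fell in *set1*(RNAi) X1 cells at day 6 and 15 in *mll1/2*(RNAi) X1 cells at day 12, with median changes of -0.80 and -2.08, beside 13.2% and 15.1% of all tested IDs that fell. Without the 3 control libraries that stood apart, which leaves a single control, the median at day 12 was -1.90. Few of them reached a testable level in whole worms. Of the 5 tested after *set1*(RNAi), 2 fell at day 6 and 4 at day 9, beside 10.6% and 22.9% of all tested IDs, with medians of -0.67 and -0.84. Of the 6 tested after *mll1/2*(RNAi), 3 fell at day 9 and 5 at day 12, beside 5.06% and 3.35%, with medians of -0.81 and -0.95.

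In 10 members the order was the other way, with a whole-worm level at least 2 times the X1 level in both experiments. In X1 cells 8 of these 10 fell at *set1*(RNAi) day 6 and 8 at *mll1/2*(RNAi) day 12, with median changes of -0.91 and -1.65, beside the same 13.2% and 15.1%. Without the 3 control libraries, which leaves a single control, the median at day 12 was -1.70. In whole worms after *set1*(RNAi), 2 of the 10 fell and 0 rose at day 6, and 3 fell and 3 rose at day 9, beside 10.6% and 22.9% of all tested IDs that fell and 5.91% and 19.2% that rose, with medians of -0.09 and 0.00. After *mll1/2*(RNAi) 1 of the 10 fell and 0 rose at each day, with medians of 0.23 and 0.09. Of all tested IDs 5.06% and 3.35% fell, and 4.01% and 2.57% rose. Whether RNA from other cells in the sorted fraction had a part in these X1 values was not tested, since no marker was matched to an ID.

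A total of 4 members rose in a whole-worm comparison, and 1 of these fell in another. SMED30005973 rose most after *set1*(RNAi). In whole worms at day 9 it had 41.9, 44.9, 42.0 and 40.4 RPKM in *set1*(RNAi), against 33.2, 33.3, 32.03 and 34.1 RPKM in *unc22*(RNAi). The groups did not overlap, and the change was 0.35 ± 0.04 (SE, limma adjusted p = 3.72e-06). At day 6 it averaged 34.7 ± 1.4 RPKM in *set1*(RNAi) and 32.9 ± 1.4 RPKM in *unc22*(RNAi) whole worms (SD, n = 4 each), which was not called (limma adjusted p = 0.233), and the effect differed between the days (interaction 0.27 ± 0.06 SE, adjusted p = 0.00921).

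In X1 cells SMED30005973 was lower. It had 5.13, 7.04, 5.87 and 6.15 RPKM in *set1*(RNAi) X1 cells at day 6, against 14.1, 12.8, 10.4 and 13.7 RPKM in *unc22*(RNAi), without overlap (change -1.02 ± 0.12 SE, limma adjusted p = 1.99e-05). At day 12 it had 5.79, 7.50, 4.18 and 4.82 RPKM in *mll1/2*(RNAi) X1 cells, against 9.00, 12.4, 19.4 and 13.9 RPKM in *unc22*(RNAi), again without overlap (change -1.20 ± 0.22 SE, limma adjusted p = 0.00066). Without the 3 control libraries that stood apart the change was -0.68, against the single control left, the lowest at 9.00 RPKM. All 4 *mll1/2*(RNAi) libraries were still below that control. After *mll1/2*(RNAi) its whole-worm changes of 0.30 at day 9 and 0.04 at day 12 were not called (limma adjusted p = 0.0769 and 0.853). The day 9 change was called without *unc22*(RNAi) replicate 4 (0.0252), with array weights (0.00422) and with a replicate block (0.0166).

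SMED30017224 was the member that rose in whole worms after *mll1/2*(RNAi). At day 9 it had 38.8, 34.8, 29.0 and 32.02 RPKM in *mll1/2*(RNAi), against 21.9, 21.5, 28.7 and 27.3 RPKM in *unc22*(RNAi). The lowest *mll1/2*(RNAi) library was just above the highest control, and the change was 0.43 ± 0.11 (SE, limma adjusted p = 0.0259). That call was lost without *mll1/2*(RNAi) replicate 1 or 2 or *unc22*(RNAi) replicate 1 or 2 (adjusted p = 0.0833, 0.0701, 0.109 and 0.106), and in a fit of the 8 libraries alone (adjusted p = 0.0586). At day 12 it averaged 34.0 ± 1.4 RPKM in *mll1/2*(RNAi) and 27.8 ± 3.5 RPKM in *unc22*(RNAi) whole worms (SD, n = 4 each), a change of 0.30 that was not called (limma adjusted p = 0.132), but was called without *unc22*(RNAi) replicate 1 (0.0493), with array weights (0.00187) and by limma-voom (0.0377).

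In X1 cells SMED30017224 had 5.39, 6.53, 5.04 and 4.84 RPKM at *mll1/2*(RNAi) day 12, against 15.8, 24.2, 25.9 and 22.6 RPKM in *unc22*(RNAi). The change was -1.91 ± 0.18 (SE, limma adjusted p = 1.6e-06), without overlap. It was -1.47 against the single control left without the 3 libraries that stood apart. At *set1*(RNAi) day 6 it had 8.27, 7.27, 7.83 and 9.48 RPKM in X1 cells, against 12.4, 15.2, 16.7 and 15.7 RPKM in *unc22*(RNAi), again without overlap (change -0.83 ± 0.16 SE, limma adjusted p = 0.00136). In *set1*(RNAi) whole worms its change at day 6 was -0.17 (limma adjusted p = 0.0439), and at day 9 -0.06 (adjusted p = 0.381). The day 6 call was kept in 9 of 18 alternatives. The losses included leaving out any 1 of 5 libraries (adjusted p = 0.0588 to 0.145) and median scaling (0.132). Both SMED30005973 and SMED30017224 had a higher RPKM in *unc22*(RNAi) whole worms than in *unc22*(RNAi) X1 cells of the same experiment, in tables normalised apart.

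**Figure D5:**
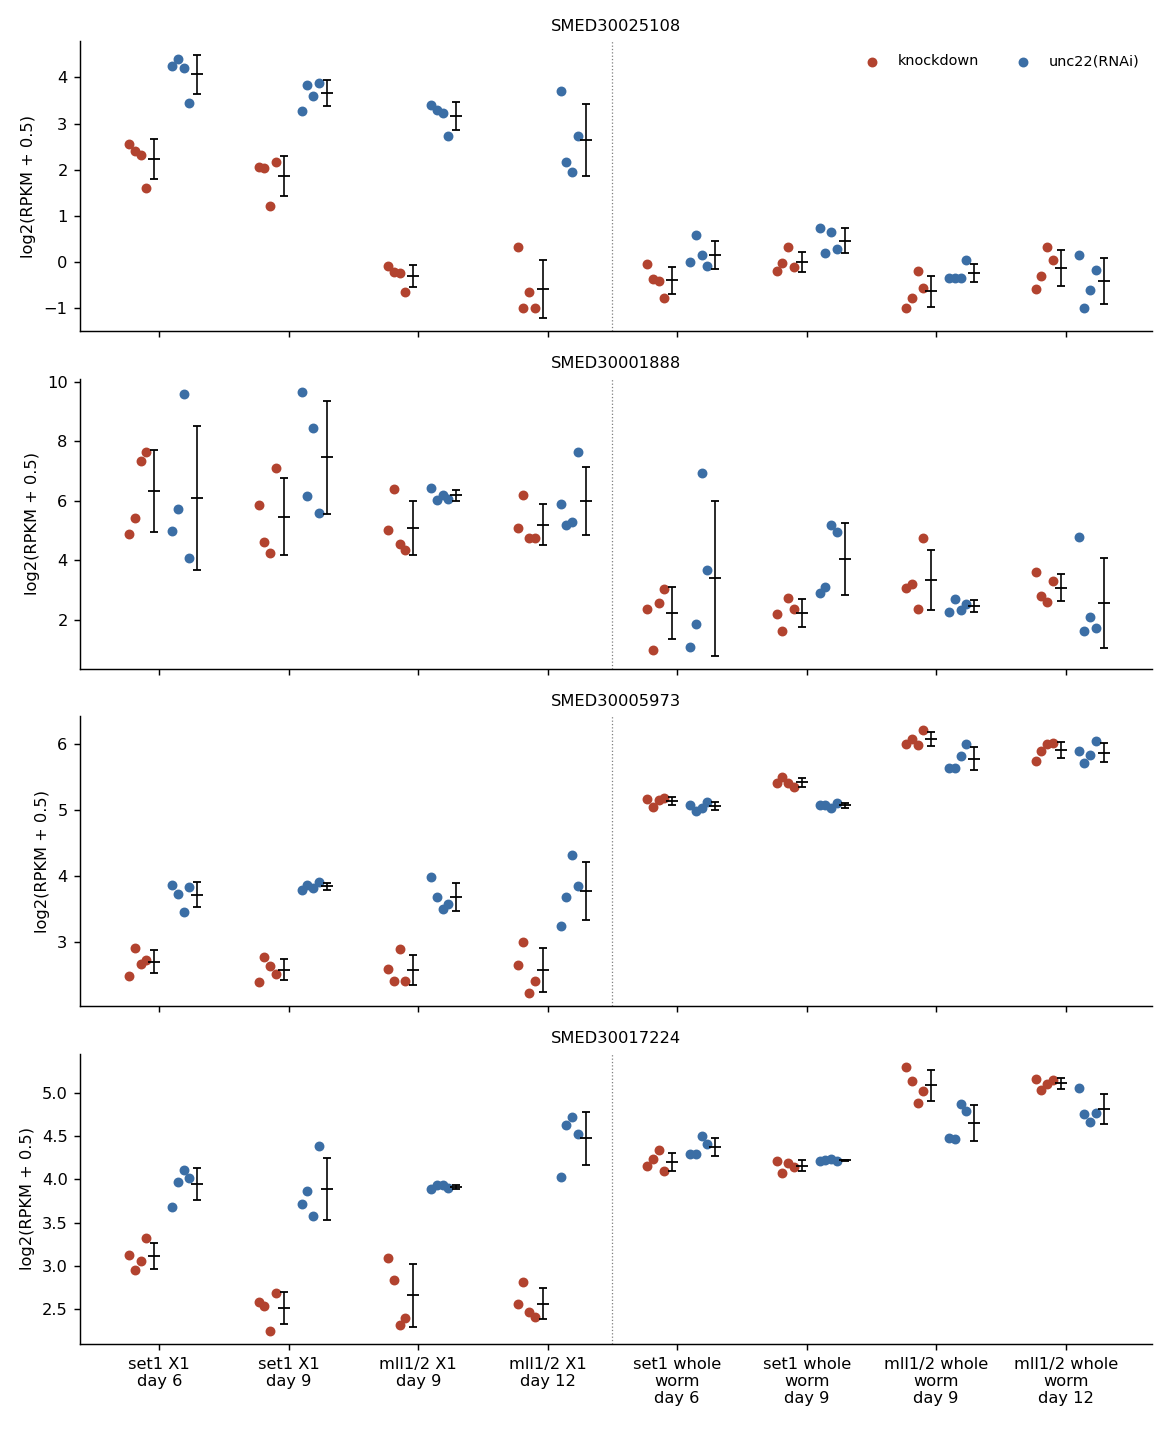
Level on the log2(RPKM + 0.5) scale of the 4 example transcripts in each library, with knockdown (red) left of *unc22*(RNAi) (blue) in every comparison, and the mean and SD of each group beside its points (n = 4). SMED30025108 separates in X1 cells and is near the floor in whole worms, SMED30001888 overlaps between groups in most comparisons, and SMED30005973 and SMED30017224 are lower after knockdown in each X1 comparison shown.

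The effect on members in whole worms was also compared between days. In the *set1* experiment the effect was more positive at day 9 than at day 6 in 2 of 34 members and more negative in 1 by the limma interaction, beside 3.14% and 5.25% of all tested IDs, or 8.38% in either direction. At an unadjusted p below 0.05 there were 9 members, beside 22.2%. In the *mll1/2* experiment limma called 0 of 34 members, beside 0% of all tested IDs, and 2 members had an unadjusted p below 0.05, beside 4.64%. Here limma-voom also called 0 members.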

How the data were processed

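The authors deposited RPKM values as 4 tables of 16 libraries, split by experiment and by tissue. The submitters' processing notes name CASAVA 1.8.2, Bowtie and edgeR. What each tool did, which transcripts were counted and how rows were filtered is not given in the sources used here. Columns of the *set1* X1 table are named like whole-worm samples, so their numbers identify no X1 sample and they were used by group (library a to d). Reads were recovered from the steps in RPKM: 100% of values were within 0.01 read of a whole number. Library size implied by the step was 0.704 to 1.153 times the reads listed, so the values hold a scaling factor. Libraries of a group differed by more than sampling noise, and 0 pairs were identical.

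IDs with a mean of 1 RPKM or more in a table were tested with limma 3.58.1 (R 4.3.3; lmFit, eBayes with trend) on log2(RPKM + 0.5), 1 mean per group, two-sided, Benjamini-Hochberg over all IDs tested, called below 0.05. Fold changes on this scale understate those of low transcripts. The fit was tested on simulated data. Python 3.11.15 with pandas 2.3.3 was used for counts. Members and lists were chosen with earlier results of these data known. Examples by ID were the member with the most negative mean day 9 X1 change, the other member with the highest *unc22*(RNAi) X1 level, and the largest called whole-worm rise after each knockdown. Correlations of same-numbered libraries were all over 0.1 (0.17, 0.252, 0.173 and 0.407) in *mll1/2* whole worms at day 12 only. There replicates 1 and 3 correlated more with a library of another number (0.472 and 0.356), so these correlations did not show pairing by number. On the first principal component of *mll1/2* whole worms (34.2% of the variance), replicate 1 was the highest and replicate 4 the lowest of each group at both days. The main fit did not take this order into account. Alternatives were other pseudocounts, scalings, filters, fits, a replicate block and leaving out libraries.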

Additional observations from a re-analysis of the deposited data

Results flagged for a closer look

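Dixon's limit was applied to the groups of 4 libraries behind the member medians and the example transcripts. Its chance rate of about 1 in 20 assumes normally distributed values. The example transcripts were checked on RPKM, not on the log scale of the fits. The number of groups past the limit is therefore not set against that rate. In 6 of the 72 groups checked, all of them groups of an example transcript, 1 library lay far from the other 3. For SMED30001888 this was 72.7 RPKM in *mll1/2*(RNAi) X1 replicate 2 at day 12, 201 RPKM in *unc22*(RNAi) X1 replicate 4 at day 12 and 765 RPKM in *unc22*(RNAi) X1 library c at *set1* day 6. In whole worms it was 122 RPKM in *unc22*(RNAi) replicate 3 at *set1* day 6 and 27.3 RPKM in *unc22*(RNAi) replicate 1 at *mll1/2* day 12. For SMED30025108 the low value was 1.81 RPKM in *set1*(RNAi) X1 library c at day 9.

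In whole worms the effect of *set1*(RNAi) differed between day 9 and day 6 for 3 of 34 members by the limma interaction, a share near the 8.38% of all tested IDs. For SMED30005973 the difference was 0.27 (adjusted p = 0.00921), and it was called under all 24 alternatives (adjusted p = 0.00668 to 0.0229).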

How the results depend on the processing

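Of 251 alternative values of the member count, the counts called lower or differing between days and the medians, 242 were within 1.5 times the main count or within 1 SD between libraries of the main median. The exceptions included the day 9 rule with pseudocounts of 0.1 (85 members) and 1 (31), and the *mll1/2* X1 day 12 median with the same pseudocounts (-2.08 and -1.43). Others were the *set1* whole-worm day 6 count with a mean of 2 RPKM (7) and the *mll1/2* whole-worm counts with no filter (13 and 17). The *set1* whole-worm day 9 median was within the limit in 10 of 12 alternatives, and with median scaling (-0.24) it was outside. The causes were not tested. Leaving out 1 library gave 34 to 44 members lower at *set1* X1 day 6, 45 to 47 at *mll1/2* X1 day 12, 8 to 12 and 14 to 17 in *set1* whole worms (day 9 median -0.34 to -0.24), and 6 to 8 and 8 to 10 in *mll1/2* whole worms. Of 108 alternative counts of members called higher 95 were within 1.5 times, and leaving out 1 library gave 0 to 4 at day 9 and 0 to 1 at day 12 in *mll1/2* whole worms. Member counts of the day 9 rule were 46 to 60. With the replicate block, 46 members were lower at *mll1/2* X1 day 12, 13 and 18 in *set1* whole worms and 9 and 10 in *mll1/2* whole worms, where 4 and 3 were higher. Only in *mll1/2* whole worms at day 12 were all same-numbered correlations over 0.1. No block was run for *set1* X1, where the numbers in the column names match whole-worm samples. With array weights 7 and 8 members were higher in *mll1/2* whole worms, and with median scaling 1 and 5 in *set1* whole worms. Shares of all tested IDs under these settings were not counted. Signs that turned were all of values not called: SMED30001888 at *set1* X1 day 6 (-0.29 with array weights, -0.45 to 1.38 leaving out 1 library) and in *set1* whole worms at day 6 (-1.92 to 0.026 leaving out 1 library, the last without *unc22*(RNAi) replicate 3), SMED30017224 in *set1* whole worms at day 9 (0.0047 with median scaling) and SMED30005973 in *mll1/2* whole worms at day 12 (-0.014 with median scaling, -0.017 to 0.098 leaving out 1 library, the first without *unc22*(RNAi) replicate 2). Low members limit the precision: at *mll1/2* X1 day 12, 9 of 52 had 0 reads in at least 1 *mll1/2*(RNAi) library.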
